A study of Mus musculus with 6 samples.

Results

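The genes described here drive or restrain the passage of cells from G1 into S phase. They are the D cyclin genes Ccnd1, Ccnd2 and Ccnd3, the cyclin E gene Ccne1, the Cdk inhibitor genes Cdkn1a, Cdkn1b, Cdkn2a and Cdkn2b, and the Myc family genes Myc and Mycn. These 10 genes, of 24288 gene symbols in the expression table, were chosen by a list of names with no threshold on their values, although earlier results of these data were known when the list was made. Where a gene had several entries, the entry with the most reads was used.

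Expression was measured by RNA sequencing in day 2 epiblast-like cells (EpiLCs), a culture model of the early post-implantation epiblast, to ask which transcripts depend on Smad2 and Smad3 as embryonic stem cells (ESCs) leave the naive state. ESCs of strain 129/Sv//Ev were moved from 2 inhibitors with LIF into N2B27 medium with Fgf2 and activin A, a ligand that signals through Smad2 and Smad3, and both genotypes received the same medium. Wild-type (WT) cells were of the CCE line, and double-knockout (DKO) cells were of the single clone KT15.1F6, labelled Smad23DKO, which is homozygous for the targeted Smad2 allele tm1Rob and lost the region around exon 1 of Smad3 to a Cas9 nickase. There were 3 libraries of each genotype, each from a separate differentiation of the same line. Each genotype is thus 1 line, and differences between lines cannot be told apart from the knockout. As these were bulk samples, a change in the number of cells in a cycle phase cannot be told apart from a change of RNA per cell.

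D cyclins bind Cdk4 and Cdk6, and cyclin E binds Cdk2. These kinases phosphorylate the retinoblastoma (Rb) proteins and so free E2f transcription factors, which switch on the genes of DNA replication. The Ink4 inhibitors, encoded by Cdkn2a and Cdkn2b, block Cdk4 and Cdk6, and the Cip/Kip inhibitors p21 and p27, encoded by Cdkn1a and Cdkn1b, act mainly on cyclin E and Cdk2 complexes. In epithelial cells, TGF-β is known to stop growth through Smad2, Smad3 and Smad4 by raising Cdkn2b and Cdkn1a and lowering Myc. Pluripotent cells, in contrast, are known for a short G1 phase, high cyclin E and low inhibitor levels.

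All libraries were of similar depth, from 57644143 to 63046034 recovered reads over 1 entry per gene. Smad3 had 839 ± 37.0 normalized reads (reads over the gene body divided by the size factor of the library; SD, n = 3) in WT and fell to 23.6 ± 6.16 in DKO. Smad2 measured 4520 ± 86.3 and 5062 ± 109, but its reads cover the whole gene body and so do not check the targeted allele. All 7 EpiLC markers examined had reads in both genotypes. Fgf5 fell by 2.02 and Pou3f1 by 0.62 on the log2 scale, Sox2 rose by 1.47, and Pou5f1, which encodes Oct4, measured 21846 ± 496 and 20761 ± 344. Markers of other cell types also moved. Of 8 tested trophectoderm markers 7 rose (Cdx2, Gata3, Gata2, Tfap2c, Eomes, Krt8 and Hand1). The median log2 fold change was 1.66, from 0.44 for Krt18 to 4.82 for Gata3. All 9 listed markers summed to 1784 to 1885 normalized reads in WT and 3277 to 3629 in DKO, with Elf5, too low to be tested, near 0 in both. Krt18, which differed by less than 1.5-fold, made up 1158 ± 44.7 and 1570 ± 61.7 of these sums. Of 7 tested fibroblast markers 2 (Dcn and Col1a2) fell. All 8 listed summed to 1724 to 1803 in WT and 608 to 678 in DKO, and Dcn alone held 1330 ± 51.3 and 300 ± 16.9. The sum of extra-embryonic endoderm markers was 294 to 326 in WT and 316 to 341 in DKO, with Ttr at the floor of 3 reads. Dab2 held much of this sum, at 198 ± 17.2 and 154 ± 14.4, and was lower in DKO (log2 fold change -0.37, limma, adjusted p = 0.00256). Of 7 tested markers 2 (Gata6 and Pdgfra) rose, and the median log2 fold change was -0.29. Marker RNA does not show whether such cells were present, and any part of them in the values below was not tested.

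The promoter windows shown are those of both annotated starts of Ccnd3, since its gene body is described below in the parts that these starts bound, and those of Mycn and Cdkn1b, which hold matches to E2f or Smad elements. Each covers the 250 bases before a RefSeq transcription start (GRCm38.p6, the mm10 assembly) and runs 5′ to 3′ on the strand of the gene. Capitals mark GGCGCC, a GC-rich sequence that Smad proteins are known to bind, and TTTGGCGC, an E2f element.
Ccnd3, upstream start, chr17:47504801-47505050 (+): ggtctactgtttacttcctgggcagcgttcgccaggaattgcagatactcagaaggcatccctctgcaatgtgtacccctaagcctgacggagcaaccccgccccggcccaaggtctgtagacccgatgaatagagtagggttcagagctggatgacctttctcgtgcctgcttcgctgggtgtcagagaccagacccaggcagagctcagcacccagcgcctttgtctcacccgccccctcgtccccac
Ccnd3, downstream start, chr17:47593217-47593466 (+): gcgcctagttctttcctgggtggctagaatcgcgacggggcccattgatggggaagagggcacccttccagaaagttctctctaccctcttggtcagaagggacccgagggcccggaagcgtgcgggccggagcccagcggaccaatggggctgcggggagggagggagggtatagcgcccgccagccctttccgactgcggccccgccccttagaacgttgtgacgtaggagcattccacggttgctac
Mycn, chr12:12941837-12942086 (-): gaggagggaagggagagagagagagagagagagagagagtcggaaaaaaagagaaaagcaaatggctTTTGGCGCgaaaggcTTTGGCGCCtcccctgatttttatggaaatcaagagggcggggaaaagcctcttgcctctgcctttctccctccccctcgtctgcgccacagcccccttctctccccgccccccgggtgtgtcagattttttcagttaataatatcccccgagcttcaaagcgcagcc
Cdkn1b, chr6:134920151-134920400 (+): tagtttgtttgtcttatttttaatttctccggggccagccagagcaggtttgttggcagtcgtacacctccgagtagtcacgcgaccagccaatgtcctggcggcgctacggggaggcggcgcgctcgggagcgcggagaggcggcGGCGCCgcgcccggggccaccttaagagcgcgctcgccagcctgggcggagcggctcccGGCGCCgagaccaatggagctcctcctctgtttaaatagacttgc

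Windows were matched for 7 of the 10 genes and numbered 10, since Ccnd3, Cdkn1a and Cdkn2a each have a pair of starts. Ccnd1, Ccnd2 and Myc were not matched. Both strands were searched for the E-box CACGTG, the Smad elements GTCTAGAC and GGCGCC, and the E2f elements TTTCCCGC and TTTGGCGC. No window held the E-box, the sequence bound by Myc and Max, which 6.02% of 32851 mouse promoter windows of the same length held. The palindrome GTCTAGAC was also in none, against 0.167% of all windows. GGCGCC was found in 3 of 10 windows (9.59% of all windows) and an E2f element in 2 of 10 (1.30%). The Mycn window holds TTTGGCGC at 183 and again at 168 bases before the start, and the latter overlaps GGCGCC at 165. In Cdkn1b, GGCGCC lies 104 and 45 bases before the start. The Arf start of Cdkn2a (chromosome 4, window from 89294620 to 89294869) has GGCGCC at 115 and TTTCCCGC at 99 bases before it, and the Cdkn2b window has none of these sequences. A match is a description of the letters and not evidence of binding.

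Among the 10 genes, Myc alone passed both thresholds, an adjusted p under 0.05 and a fold change over 1.5 (limma), and it fell. Of 17038 genes tested, 15.4% passed both, 8.04% lower and 7.35% higher in DKO. Without the fold threshold, 7 of the 10 had an adjusted p under 0.05, against a background of 53.4% of all genes. Ccne1, Cdkn1b and Myc were lower in DKO, and Ccnd3, Cdkn1a, Cdkn2b and Mycn were higher. WT and DKO values did not overlap for 6 of the 10, 3 in each direction, beside 59.0% of all genes. The median log2 fold change was 0.16 for the 10 genes and 0.0001 for all genes tested, and the median size regardless of direction was 0.32 and 0.19. Each of the 10 had between 215 and 19519 recovered reads in a library, and the coefficient of variation within a genotype ran from 0.587% to 13.2%.

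**Figure D1:**
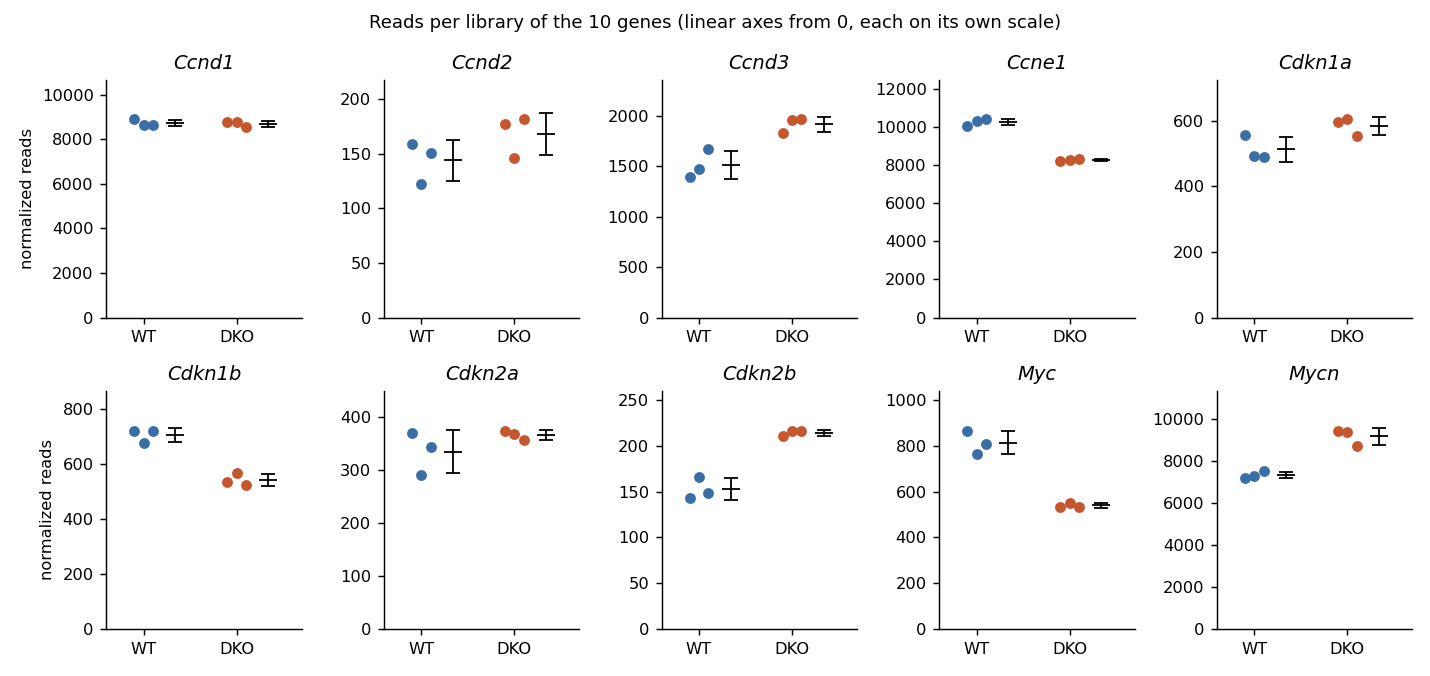
Normalized reads of each of the 10 genes (vertical axis, linear from 0 and scaled per gene) in the 3 WT libraries (blue) and the 3 DKO libraries (orange), with the mean and SD as a black bar beside the points. Ccne1, Cdkn1b and Myc lie lower in every DKO library and Ccnd3, Cdkn2b and Mycn higher, while the points of the other 4 genes overlap.

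**Figure D2:**
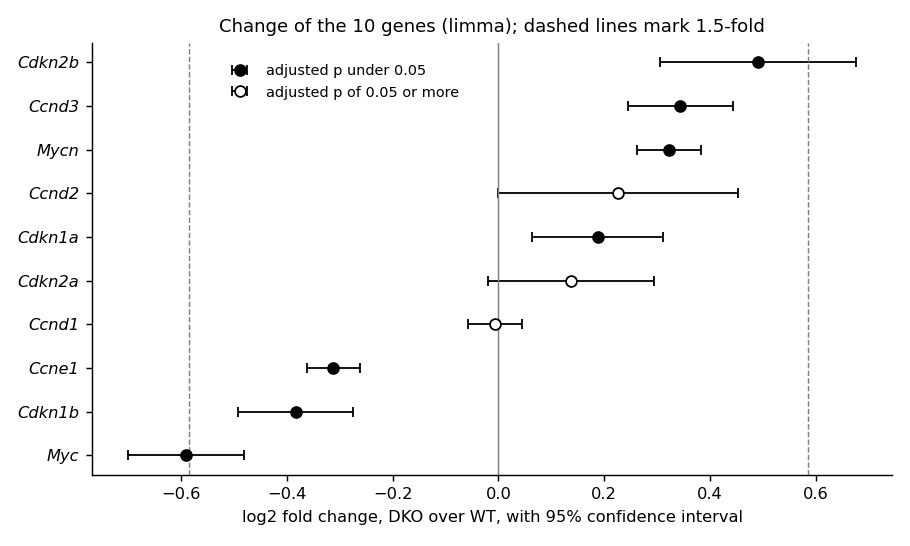
Log2 fold change of DKO over WT (horizontal axis) of the 10 genes with its 95% confidence interval from limma, where filled points have an adjusted p under 0.05 and dashed lines mark 1.5-fold. Values run from -0.59 for Myc to 0.49 for Cdkn2b, and only the Myc estimate lies past a dashed line.

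The D cyclins differed in level far more than between genotypes. Ccnd1 (NM_007631, chromosome 7, 144929931 to 144939869, mm10), which encodes the cyclin D1 subunit that activates Cdk4 and Cdk6, had 8890, 8653 and 8645 normalized reads in WT libraries 1 to 3 and 8789, 8749 and 8539 in DKO. The values of the genotypes overlapped throughout. With means of 8729 ± 139 and 8692 ± 135, the log2 fold change was -0.0061 ± 0.025 (SE, limma, adjusted p = 0.853), and its 95% confidence interval in linear terms ran from 0.961 to 1.03. The 3′ end of Ccnd1 overlaps its neighbour Oraov1 (also named LTO1) on the other strand over 1771 bases, and Oraov1 measured 357 ± 17.5 in WT and 359 ± 3.17 in DKO.

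Ccnd2 (NM_009829, chromosome 6, 127125162 to 127151060), which encodes cyclin D2, was the least abundant of the D cyclins. Its reads numbered 158, 122 and 151 in WT and 177, 146 and 181 in DKO after normalization. WT libraries 1 and 3 lay above DKO library 2, so the groups overlapped. The means were 144 ± 19.1 and 168 ± 19.3, and the log2 fold change was 0.23 ± 0.11 (adjusted p = 0.0883) and an interval from -0.0015 to 0.45. Leaving out single libraries moved the adjusted p from 0.0265 (without DKO library 2) to 0.433 (without WT library 2), and it also lay under 0.05 without WT library 1 (0.0451). The antisense genes 9330179D12Rik and Gm43126 overlap Ccnd2. The former had at most 3.41 normalized reads in any library, and Gm43126 had no entry, so its reads are not known.

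Ccnd3 (NM_001081635, chromosome 17, 47505051 to 47599683), which encodes cyclin D3, was the one D cyclin with an adjusted p under 0.05. Normalized reads were 1397, 1470 and 1666 in WT and 1825, 1953 and 1963 in DKO, so that every DKO library exceeded every WT library. From means of 1511 ± 139 and 1914 ± 77.1, the log2 fold change was 0.34 ± 0.05 (adjusted p = 9.73e-07). This entry spans 94.6 kb, most of it upstream of the start from which a shorter entry (NM_007632, 47593470 to 47599689) runs over 6.22 kb. The short entry took nearly all of the reads, 1427 ± 134 in WT and 1859 ± 75.5 in DKO, and differed by 0.38 ± 0.05 on the log2 scale (adjusted p = 9.25e-08 in a fit over all entries).

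Reads in the long Ccnd3 entry but outside the short one behaved differently. They numbered 80.6, 80.8 and 89.6 in WT and 52.7, 56.7 and 54.4 in DKO, all DKO libraries lying below all WT libraries. Their mean went from 83.7 ± 5.14 to 54.6 ± 2.01, a ratio of 0.653 (exact permutation test, two-sided, p = 0.1, the smallest that 3 against 3 libraries allow), and their part of the whole entry from 5.54% to 2.85%. RefSeq also places the non-coding gene Gm41590 within the upstream stretch, so these reads cannot be assigned to a Ccnd3 transcript, and reads in the short gene body may come from either start. Neither Ccnd3 window printed above holds a searched motif. At its 3′ end Ccnd3 shares 353 bases with Bysl on the other strand, which measured 4831 ± 69.6 in WT and 4333 ± 48.6 in DKO over its own gene body. Reads in the shared bases were not measured apart.

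Levels between D cyclins were compared per kilobase of gene body. On this scale Ccnd1 stood at 878 ± 14.0 and 875 ± 13.5 normalized reads per kilobase in WT and DKO, Ccnd3 at 16.0 ± 1.47 and 20.2 ± 0.814, and Ccnd2 at 5.56 ± 0.736 and 6.49 ± 0.745. Ccnd1 made up 97.6 ± 0.199% of the summed D cyclin level in WT and 97.0 ± 0.143% in DKO, and the part of Ccnd3 was 1.78 ± 0.181% and 2.24 ± 0.114% (exact permutation test, p = 0.1 for both, the smallest possible). Ccnd2 held 0.617 ± 0.0756% and 0.721 ± 0.0879% (exact p = 0.3). The long upstream stretch of Ccnd3 weighs on these figures. With the short Ccnd3 entry instead, a choice made after seeing the data, Ccnd3 held 20.6 ± 1.72% of the sum in WT and 25.3 ± 0.996% in DKO, Ccnd1 78.9 ± 1.72% and 74.1 ± 0.991%, and Ccnd2 0.499 ± 0.062% and 0.551 ± 0.0673%. Ccnd1 led and Ccnd3 was second on either basis.

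Ccne1 (NM_007633, chromosome 7, 38097984 to 38107534), which encodes cyclin E1, the partner of Cdk2 at the entry into S phase, was among the most abundant of the 10 genes. WT libraries held 10076, 10344 and 10411 normalized reads and DKO libraries 8238, 8258 and 8330. The groups were well apart and the DKO libraries nearly equal. The mean was lower in DKO, 8275 ± 48.6 against 10277 ± 177, and the log2 fold change was -0.31 ± 0.02 (adjusted p = 2.87e-11), with an interval of 0.778 to 0.834 in linear terms. Ccne2, which encodes the related cyclin E2, also measured less in DKO, 1897 ± 26.2 against 2147 ± 53.4 (log2 fold change -0.18 ± 0.03, adjusted p = 8.52e-05).

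Neither Cip/Kip inhibitor gene among the 10 passed both thresholds, and their estimates differed in sign. Cdkn1a (NM_001111099, chromosome 17, 29090979 to 29099701), which encodes p21 and is known as a p53 target, had 558, 493 and 491 normalized reads in WT and 596, 604 and 554 in DKO. DKO library 3 lay just under WT library 1, and the groups otherwise separated. Means of 514 ± 38.1 and 584 ± 27.1 gave a log2 fold change of 0.19 ± 0.06 (adjusted p = 0.0102), with an adjusted p of 0.0589 without WT library 2 and of 0.0544 without DKO library 2 (0.00199 to 0.0589 over the 19 alternatives that tested for any change). A shorter entry from a downstream start (NM_007669) gave 481 ± 37.1 and 545 ± 27.8 (log2 fold change 0.18 ± 0.06, adjusted p = 0.0133 in the fit over all entries). On the other strand AC167363.2 overlaps Cdkn1a over 1046 bases, and it had no entry, so its reads are not known.

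Cdkn1b (NM_009875, chromosome 6, 134920401 to 134925513), which encodes p27, had 720, 677 and 721 normalized reads in WT and 534, 565 and 524 in DKO. All DKO values were below all WT values. The mean was 706 ± 24.8 in WT and 541 ± 21.7 in DKO, and the log2 fold change was -0.38 ± 0.05 (adjusted p = 8.97e-07). The order of the pair within a library turned: the ratio of Cdkn1a to Cdkn1b reads, not scaled to length, lay between 0.681 and 0.775 in WT and between 1.06 and 1.11 in DKO. Per kilobase of gene body Cdkn1b stayed above Cdkn1a in both genotypes, at 138 ± 4.86 against 58.9 ± 4.36 in WT and 106 ± 4.23 against 67.0 ± 3.11 in DKO. This order comes from the length used. The gene bodies span 5.11 kb for Cdkn1b and 8.72 kb for Cdkn1a, but their exons cover 2.39 kb and 0.922 kb. Per kilobase of exons Cdkn1b would not lie above Cdkn1a. The remaining member of this family in the related lists, Cdkn1c, which encodes p57, was lower in DKO (1442 ± 83.6 against 1814 ± 68.6, log2 fold change -0.33 ± 0.04, adjusted p = 2.22e-07).

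Cdkn2a and Cdkn2b are neighbours on chromosome 4. Cdkn2b (NM_007670, 89306299 to 89311039), which encodes the Cdk4 and Cdk6 inhibitor p15 and is a known target of TGF-β, was higher in DKO. Its normalized reads were 143, 166 and 148 in WT and 210, 216 and 216 in DKO, without overlap. The mean was 40.5% higher, 214 ± 3.26 against 152 ± 12.2, and the log2 fold change was 0.49 ± 0.09 (adjusted p = 4.99e-05). Its interval of 0.31 to 0.68 on the log2 scale includes the threshold of 0.585, so whether the change exceeds that size cannot be said from these libraries. RefSeq places Cdkn2b within the span of the long non-coding gene Gm12610, which had no entry, so its reads are not known.

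Cdkn2a encodes a pair of unlike proteins from different starts, the inhibitor p16Ink4a and p19Arf, which acts on Mdm2 and so on p53. The Arf entry (NM_009877, 89274541 to 89294653) had 371, 291 and 343 normalized reads in WT and 375, 369 and 357 in DKO. WT libraries 2 and 3 lay below the DKO libraries, and WT library 1 lay among them. Its mean was 335 ± 40.6 in WT and 367 ± 9.16 in DKO, and the log2 fold change was 0.14 ± 0.08 (adjusted p = 0.135). Over the 19 alternatives that tested for any change, the adjusted p ran from 0.0304 (without WT library 1) to 0.694 (without WT library 2). Reads inside the Ink4a entry (NM_001040654, 89274471 to 89282192) measured 217 ± 24.2 and 239 ± 14.4 (log2 fold change 0.15 ± 0.09, adjusted p = 0.17). Reads of the Arf entry upstream of it measured 118 ± 21.3 and 128 ± 8.25, or 35.3% and 34.8% of the Arf entry (exact permutation test, p = 0.6). As the Ink4a entry lies almost wholly within the Arf entry, its reads do not separate the transcripts.

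The Myc family genes differed in sign, and Myc alone passed both thresholds. Myc (NM_010849, chromosome 15, 61985391 to 61990350), which encodes the transcription factor c-Myc, had 867, 766 and 810 normalized reads in WT and 535, 552 and 534 in DKO. Every DKO library was below the lowest WT library, and WT library 1 was the highest of all. Myc fell from 814 ± 50.7 to 540 ± 9.94, or by 0.59 ± 0.05 on the log2 scale (SE, adjusted p = 4.83e-10), with an interval of 0.616 to 0.717 in linear terms. This lies close to the threshold, whose log2 is 0.585, and the call was lost without WT library 1 (-0.54), DKO library 1 (-0.58) or DKO library 3 (-0.58), although the adjusted p was at most 6.68e-08 in every fit that tested for any change.

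Mycn (NM_008709, chromosome 12, 12936093 to 12941914), which encodes N-Myc, was by reads per kilobase of gene body the most abundant of the 10 genes. This rank rests on that scale, since Ccne1 had more unscaled reads in WT (10277 ± 177) and shorter exons (2 kb against 2.67 kb). WT libraries held 7207, 7269 and 7515 normalized reads and DKO libraries 9444, 9373 and 8700. DKO library 3 was the lowest of its group and still above every WT library. The mean was 7330 ± 163 in WT and 9172 ± 411 in DKO, and the log2 fold change was 0.32 ± 0.03 (adjusted p = 5.61e-10). Per kilobase of gene body, Mycn exceeded Myc 7.08, 8.08 and 7.90 times in the WT libraries and 15.0, 14.5 and 13.9 times in the DKO libraries. The ratio thus had means of 7.69 ± 0.535 and 14.5 ± 0.579 (SD, n = 3 each; exact permutation test, two-sided, p = 0.1, the smallest possible).

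**Figure D3:**
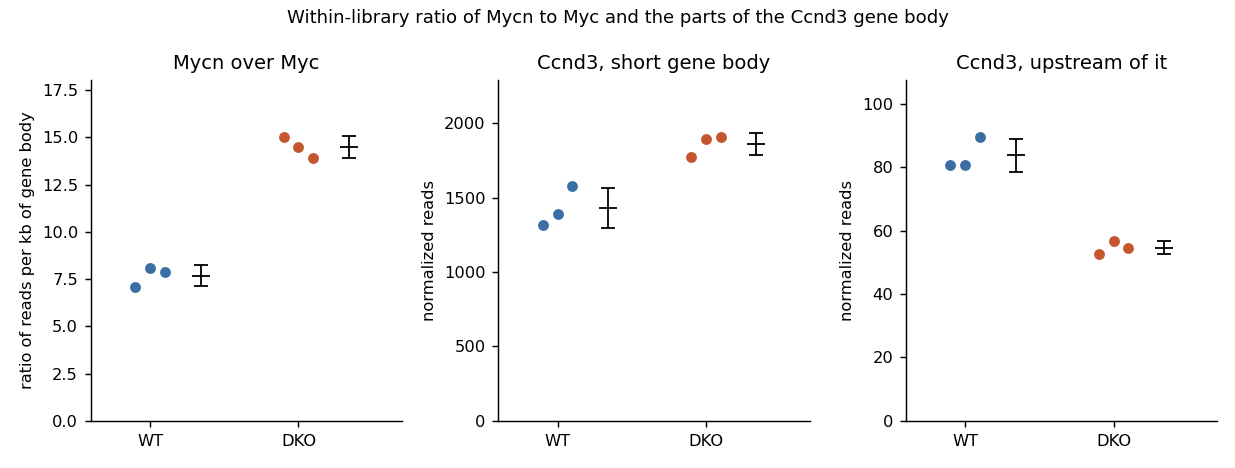
Left, Mycn over Myc in reads per kilobase of gene body; middle and right, normalized reads in the short Ccnd3 gene body and in the long one upstream of it (linear axes from 0, 3 WT libraries in blue, 3 DKO libraries in orange, mean and SD in black). The ratio is 7.08 to 8.08 in WT and 13.9 to 15.0 in DKO, and Ccnd3 reads are higher in DKO in the short gene body but lower upstream.

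By level per kilobase of gene body, the order in WT was Mycn at 1259 ± 28.0 normalized reads, Ccne1 at 1076 ± 18.6, Ccnd1 at 878 ± 14.0, Myc at 164 ± 10.2, Cdkn1b at 138 ± 4.86, Cdkn1a at 58.9 ± 4.36 and Cdkn2b at 32.2 ± 2.57. Cdkn2a at 16.7 ± 2.02 and Ccnd3 at 16.0 ± 1.47 followed and overlapped each other, and Ccnd2 came last. The place of Ccnd3 rests on its 94.6 kb entry, since its short entry stood at 229 in WT and 299 in DKO, above Myc in both. The other neighbours in the WT order did not overlap. In DKO, Mycn stood at 1575 ± 70.5, and Ccnd1 at 875 ± 13.5 and Ccne1 at 866 ± 5.09 now overlapped, as did Myc at 109 ± 2.00 and Cdkn1b at 106 ± 4.23. Inhibitor genes thus lay well below Mycn, Ccne1 and Ccnd1 in both genotypes, on a scale that counts introns. Other places in the order also rest on this scale. Exons cover 2 of 9.55 kb in Ccne1 and 2.67 of 5.82 kb in Mycn, but 0.922 of 8.72 kb in Cdkn1a and 0.895 of 20.1 kb in Cdkn2a. Per kilobase of exons the order would differ, and it was not drawn up.

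Genes that act with these 10 were described from 8 lists, to be read beside the 15.4% of all genes that passed both thresholds, the 53.4% with an adjusted p under 0.05 and the median of 0.0001. None of the 19 other cyclins, Cdks and Cdk regulators of G1 passed both thresholds by limma, edgeR or DESeq2. At an adjusted p under 0.05 alone 9 were lower and 4 higher (68.4% of the list, limma), and 13 had an unadjusted p under 0.05. The median log2 fold change was -0.03. Cdkn1c had the lowest value, and Trib2, a pseudokinase gene, the highest at 0.14 ± 0.05. Among the kinases that the D cyclins and cyclin E activate, Cdk6 was lower in DKO (1670 ± 66.8 against 1341 ± 76.9, log2 fold change -0.32 ± 0.04, adjusted p = 6.33e-07), and Cdk4 and Cdk2 had log2 fold changes of 0.03 and 0.0092 (adjusted p = 0.299 and 0.832).

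In the Rb and E2f list, 1 of 19 genes passed both thresholds. Rbl2, which encodes the Rb relative p130 found mainly in resting cells, rose from 362 ± 10.3 to 581 ± 19.1 normalized reads, a log2 difference of 0.68 ± 0.06 (adjusted p = 1.81e-10). The lowest value was that of Lin9, a subunit of the complex that p130 joins, at -0.50 ± 0.04, and E2f4, whose product pairs with p130, had -0.49 ± 0.03 (adjusted p = 4.58e-13). The related genes moved less. Lin37 had 0.09, Lin54 0.06 and E2f5 -0.08 (limma, adjusted p = 0.345, 0.169 and 0.101), and Lin52 had -0.11 (adjusted p = 0.014). Without the fold threshold 9 genes of the list were lower and 3 higher (63.2%), with a median of -0.08.

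Genes of later cycle phases differed by less than 1.5-fold. Of 22 DNA replication genes none passed both thresholds by limma, edgeR or DESeq2, 17 had an unadjusted p under 0.05 (limma), 7 were lower and 9 higher at an adjusted p under 0.05 (72.7%), and the median was 0.04, from -0.27 for the ribonucleotide reductase gene Rrm2 to 0.22 for Cdc6, which loads the replicative helicase. Among 21 tested genes of G2 and mitosis 0 passed both by the same tools, 13 had an unadjusted p under 0.05, and 2 were lower and 9 higher after adjustment (52.4%), with a median of 0.05, from Top2a at -0.23 to the phosphatase gene Cdc25b at 0.30.

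The list of p53, its regulators and its targets lay highest, with a median of 0.33 over 20 genes. Both thresholds were passed by 3 of them (15.0%, beside 15.4% of all genes). Plk2, a kinase gene, rose by 0.95 ± 0.03 on the log2 scale, Trp53inp1 by 0.76 ± 0.02 and Mdm4, which encodes an inhibitor of p53, by 0.66 ± 0.03. No gene of the list fell past both thresholds. At an adjusted p under 0.05 without the fold threshold, 14 were higher and 1, the pro-apoptotic gene Pmaip1 (-0.24 ± 0.03), was lower (75.0%, beside 53.4% of all genes). The summed level of the list was 80855 to 82702 normalized reads in WT and 104966 to 107203 in DKO.

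Of 16 partners and antagonists of Myc, Mxd4, which encodes a repressor that competes with Myc for Max, rose by 0.59 ± 0.11 on the log2 scale (adjusted p = 5.34e-05). It had 124, 123 and 97.1 normalized reads in WT and 162, 170 and 185 in DKO. This call was lost without WT library 3 or without DKO library 3. Mxi1, which encodes a repressor of the same family, had the lowest value, -0.37 ± 0.04, and the median was 0.01. Without the fold threshold 4 were lower and 6 higher (62.5%). Among 22 growth and ribosome biogenesis genes known as Myc targets none passed both thresholds by limma, edgeR or DESeq2. At an adjusted p under 0.05 alone 12 were lower and 1 higher (59.1%, beside 53.4% of all genes, limma), and 14 had an unadjusted p under 0.05. They ran from -0.32 ± 0.03 for Srm, which makes spermidine, to 0.28 ± 0.03 for Cad, which starts pyrimidine synthesis, with a median of -0.09.

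The 17 factors known for the arrest response to TGF-β, other than the 10 genes themselves, held the largest single values. Ski and Skil, which encode repressors bound by Smad proteins, fell by 1.10 ± 0.03 and 0.62 ± 0.02 on the log2 scale. Id1, Id3 and Id2, which encode inhibitors of helix-loop-helix factors and are known Bmp targets, rose by 6.51 ± 0.06, 4.42 ± 0.06 and 2.35 ± 0.05. The median over the list was 0.05, and 12 of 17 genes did not pass both thresholds. Without the fold threshold 5 were lower and 8 higher (76.5%). E2f4, E2f5, Rbl1, Cdc25a and Zbtb17 stand in this list and in another.

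**Figure D4:**
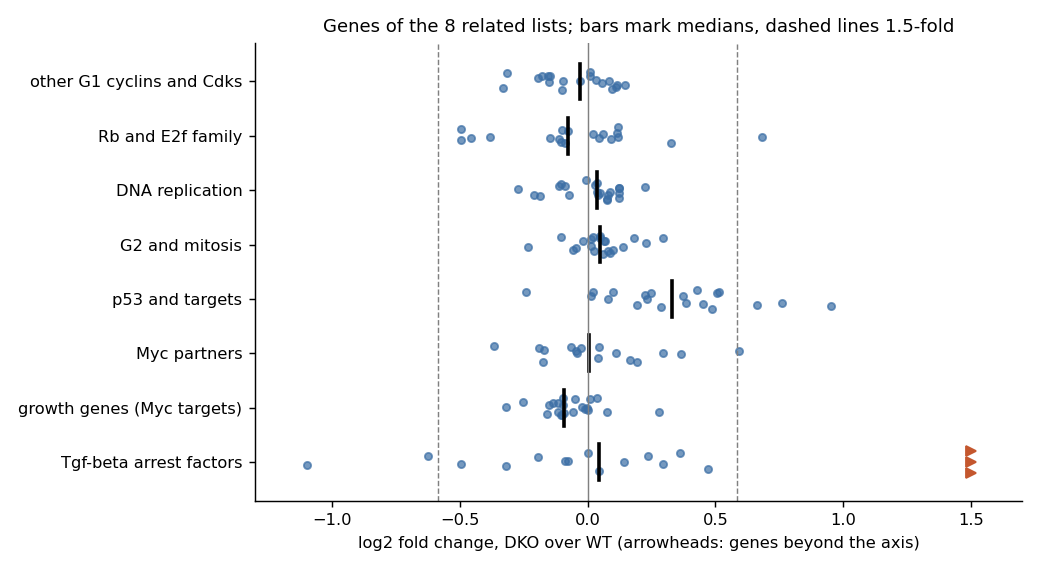
Log2 fold change of DKO over WT (horizontal axis) of each tested gene in the 8 lists, 1 point per gene, with list medians as black bars and 1.5-fold as dashed lines; orange arrowheads stand for Id1, Id2 and Id3, which lie beyond the axis. Most points lie within 1.5-fold, and the p53 list has the highest median, 0.33.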

How the data were processed

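Total RNA depleted of ribosomal RNA was sequenced from 3 WT and 3 DKO EpiLC cultures with a strand-specific kit. In the study's methods, ribosomal reads were filtered with Bowtie2, other reads were aligned to mm10 with STAR, and duplicates were dropped with SAMtools before counting over refGene gene bodies, taken here to include introns. The use of strand was not stated, so reads of overlapping genes cannot be told apart. The authors' deposited table holds a signal, reads divided by 1 DESeq2 size factor per library (1.76 to 1.93), called normalized reads here. The authors' own comparison table (means, log2 fold changes, standard errors, Wald scores and p-values) was not used.

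Values in each library were whole multiples of the value of 1 read, so reads were recovered (100% whole within 0.01 reads). Of 33812 rows, 138 without a symbol (0.517% of reads) were left out. The main test was limma 3.58.1 (R 4.3.3, moderated test with a variance trend) on log2(normalized reads + 1) over 17038 genes that passed filterByExpr of edgeR 4.0.16, 1 entry per gene, with Benjamini-Hochberg adjustment over all of them. The pseudocount of 1 slightly understates changes of low genes. A gene was called changed, and the words rose and fell were used, at an adjusted p under 0.05 and a fold change over 1.5, as in the study. Count tests on recovered reads (edgeR, DESeq2 1.42.0, limma-voom) were alternatives. Errors are SD over 3 libraries or SE of a log2 fold change, intervals are 95%, and both cover the spread between these libraries, which come from 1 line per genotype. Within a group, library pairs differed by 3.30 to 5.36 times the sampling variance of reads taken as independent. Sequencing was paired-end and the counting of mates was not described, so mates counted apart may raise these figures. Deviations of same-numbered WT and DKO libraries had correlations of -0.0252 to 0.0048. No shared deviation was thus seen, but this cannot settle whether same-numbered libraries were made together.

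The 10 genes, the lists and the motifs were chosen with earlier results of these data known. Named genes are the 10, Smad2, Smad3, and list genes that passed both thresholds or had the lowest or highest value of their list. Cdk2, Cdk4, Cdk6, Ccne2, E2f4, E2f5, Lin37, Lin52, Lin54, Pou5f1, Elf5, Ttr, Dab2 and the genes overlapping a gene body were added after their values were seen. Positions came from the GENCODE annotation and promoter windows from RefSeq, both of GRCm38. The limma fit, edgeR, DESeq2, limma-voom, the replicate block and the test against 1.5-fold were tested on simulated data. The other alternatives, among them the DESeq2 prior, were not.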

Additional observations from a re-analysis of the deposited data

How the results depend on the processing

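Directions were stable for 9 of the 10 genes in all fits. The log2 fold change of Ccnd1 was 0.0071 without WT replicate 1 and 0.0067 without DKO replicate 3, and its values when single libraries were left out ran from -0.0141 to 0.0071. The call of Myc was the least stable. The count of the 10 that changed was 0 with a pseudocount of 10 (Myc -0.58), with a DESeq2 prior on fold changes (-0.58, added after the data were seen) and when the test was set against 1.5-fold (-0.59), and between 0 and 1 when single libraries were left out (Myc -0.63 to -0.54). Without a fold threshold 7 of the 10 passed (Ccnd3 0.34, Ccne1 -0.31, Cdkn1a 0.19, Cdkn1b -0.38, Cdkn2b 0.49 and Mycn 0.32 besides Myc). Over all genes, 1546 changed with a mean of at least 100 reads, 9098 without a fold threshold and 1115 in the test against 1.5-fold, beside 2623. With a replicate block, 2602 changed and no call among the 10 did, and in the labels the blocked libraries share only a number. Without a fold threshold, the lists held 13 other cyclins and Cdks, 12 Rb and E2f genes, 16 replication genes, 11 mitotic genes, 15 p53 genes, 10 Myc partners, 13 Myc targets and 13 arrest factors. The Myc partners held 0 with a pseudocount of 10, with the prior and in the test against 1.5-fold, and 0 to 1 when single libraries were left out, and the Rb and E2f list held 0 in the test against 1.5-fold.

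Shares, ratios and the order of levels between genes depend on the length used. With reads not scaled to length, Ccnd1 held 84.1% in WT and 80.7% in DKO, Ccnd2 1.38% and 1.56%, Ccnd3 14.5% and 17.8%, and Mycn over Myc was 9.03 and 17.0. Per kilobase of exons, also added later, the shares were 76.0% and 71.4%, 0.740% and 0.816%, and 23.3% and 27.8%. With the short Ccnd3 entry they were 78.9% and 74.1%, 0.499% and 0.551%, and 20.6% and 25.3%. The limits are 3 libraries of 1 line per genotype, gene bodies that count introns, and RNA levels, which do not measure protein or cell cycle phase.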
